A study of Mus musculus with 3 samples.

Results

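The collagen gene family was read from every probe whose symbol in the platform annotation starts with Col, a number, the letter a and another number. This took in 37 of the 23473 probes, and 36 of the 16446 gene symbols on the array. One of them, Col4a3bp, shares the letters only: it is an older symbol of Cert1, a ceramide transfer protein, and is kept apart from the 35 collagen genes. Col15a1 had 2 probes and the other 34 collagens 1 probe each.

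RNA came from mouse OP9 stromal cells, which descend from the calvaria of a newborn B6C3Fe-a/a-Csf1op/Csf1op mouse and serve as a feeder layer for blood cells. The OP9-DL cells express GFP and the Notch ligand Delta-like 1, the OP9-GFP cells express GFP alone, and the OP9 cells are the control line. All 3 lines share the Csf1op background and were grown in aMEM with FBS without further treatment. Not given in the sources used here are the promoter of the transgenes, the number of clones behind each line and the passage.

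Each line was hybridised to 1 one-colour array, so no difference below has a replicate check, no test was possible, and the effect of a transgene cannot be told apart from other differences between the cultures. Fewer collagen-making cells and less RNA per cell cannot be told apart either. Values are linear probe intensities that the authors scaled to a median of 20 on each array, and 6.32% to 6.62% of the probes were blank. Dll1, the gene of Delta-like 1, read 333.3 in OP9-DL, 20.5 in OP9-GFP and 14.0 in OP9. A probe was compared where it had a value on all 3 arrays and its mean log2 value lay at or above the 25th percentile of such probes, an intensity of 6.13. A gene was counted as higher or lower where 2 arrays differed 2-fold or more. Probes of one gene were averaged in log2, while shares of all compared probes count each probe.

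The cells carried transcripts of mesenchymal markers on every array. Vim, the intermediate filament of mesenchymal cells, read 32110.4 in OP9-DL, 25328.1 in OP9-GFP and 18420.0 in OP9, and Pdgfra, a receptor of stromal cells, read 127.1 in OP9-DL, 166.1 in OP9-GFP and 800.6 in OP9. Of the 7 stromal markers with a probe, Thy1 was dim at 3.0 or less. The summed intensity of 9 blood cell markers was 973.4 in OP9-DL, 57.7 in OP9-GFP and 62.6 in OP9. Tpsab1 (818.9) and Cd48 (114.4) made up nearly all of the OP9-DL sum, while Ptprc, which defines white blood cells, read 2.8 in OP9-DL, 2.5 in OP9-GFP and 2.1 in OP9. The summed intensities of 5 endothelial and 2 epithelial markers stayed between 8.9 and 33.6. Whether blood cell transcripts have a part in the collagen values was not tested.

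Collagens are the main structural proteins of the extracellular matrix. Their chains wind around each other in a triple helix, and the chains of one type often come from different genes that have to be made together. Fibrillar collagens (types I, II, III, V, XI, XXIV and XXVII) form the cable-like fibrils of bone, skin and cartilage. Type IV chains build the sheet-like network of basement membranes, where the multiplexins Col15a1 and Col18a1 also lie. FACIT collagens, the fibril-associated ones with interrupted helices, coat fibrils, and the remaining types form beaded filaments, anchoring fibrils, short-chain networks or transmembrane proteins.

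The promoters of 4 collagens whose values set the lines apart are shown first, since Col6a1 and Col6a2 kept the same order of lines, Col5a3 had the widest gap between OP9-GFP and OP9, and Col3a1 stood apart in OP9-DL. Each sequence is the 250 bases before an annotated start site in RefSeq (GRCm38.p6), printed along the gene. Capitals mark matches to motifs on either strand. The TATA box was searched for with the letters TATAAA. The CCAAT box was searched for as its name is written. The GC box was searched for with the letters GGGCGG. The windows are chr10:76726045-76726294 (minus strand) for Col6a1, chr10:76623405-76623654 and chr10:76623631-76623880 (minus strand) for 2 start sites of Col6a2, chr9:20815068-20815317 (minus strand) for Col5a3 and chr1:45311288-45311537 (plus strand) for Col3a1.
Col6a1: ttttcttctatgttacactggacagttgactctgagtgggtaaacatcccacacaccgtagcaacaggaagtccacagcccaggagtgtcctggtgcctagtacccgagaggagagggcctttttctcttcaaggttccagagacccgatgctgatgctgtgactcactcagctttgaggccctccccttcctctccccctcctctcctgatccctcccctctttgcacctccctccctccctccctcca
Col6a2, window 1: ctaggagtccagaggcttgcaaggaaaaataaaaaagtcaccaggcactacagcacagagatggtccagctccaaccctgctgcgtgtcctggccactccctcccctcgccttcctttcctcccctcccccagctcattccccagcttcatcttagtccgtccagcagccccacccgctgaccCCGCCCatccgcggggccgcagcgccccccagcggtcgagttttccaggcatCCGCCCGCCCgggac
Col6a2, window 2: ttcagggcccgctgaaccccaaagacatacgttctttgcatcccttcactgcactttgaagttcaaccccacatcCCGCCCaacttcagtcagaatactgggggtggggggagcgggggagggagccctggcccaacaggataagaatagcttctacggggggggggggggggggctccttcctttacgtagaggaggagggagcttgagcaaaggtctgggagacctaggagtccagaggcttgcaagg
Col5a3: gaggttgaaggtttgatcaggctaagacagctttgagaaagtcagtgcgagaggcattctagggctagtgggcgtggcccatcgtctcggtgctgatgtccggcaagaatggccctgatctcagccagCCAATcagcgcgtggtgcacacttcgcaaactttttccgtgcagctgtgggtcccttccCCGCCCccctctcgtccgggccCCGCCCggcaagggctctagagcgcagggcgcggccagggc
Col3a1: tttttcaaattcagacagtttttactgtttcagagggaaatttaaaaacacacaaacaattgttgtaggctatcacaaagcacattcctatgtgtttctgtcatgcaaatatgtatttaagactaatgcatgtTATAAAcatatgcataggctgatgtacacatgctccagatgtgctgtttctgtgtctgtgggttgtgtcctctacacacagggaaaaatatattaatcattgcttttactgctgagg

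The Col6a1 window held none of these letters. Col6a2 held 3 GC boxes on the opposite strand in its window 1, of which those starting 15 and 11 bases before the start overlap, and 1 in its window 2. Col5a3 held 1 CCAAT box, 122 bases before the start, and 2 GC boxes. Col3a1 held 1 TATA box, 117 bases before the start. The RefSeq table matched 28 of the 35 collagen genes with 30 windows, and Col1a1, Col2a1, Col5a2, Col9a3, Col12a1, Col14a1 and Col22a1 were not matched. Of these 30 windows, 56.7% held a GC box, 36.7% a CCAAT box and 16.7% a TATA box, against 32.7%, 33.8% and 12.4% of all 32851 windows of this length. These matches are descriptions of letters and not binding sites.

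Of the 35 collagen genes, 26 were bright enough to compare. A blank on 1 array kept out Col9a2, Col19a1, Col23a1 and Col25a1, and Col4a6, Col11a2, Col20a1, Col22a1 and Col27a1 lay below the brightness limit. No reading of these 9 genes exceeded 8.3. Of the 26 collagens, 10 differed 2-fold or more between some pair of lines, which is 38.5%, against 17.6% of all 15581 compared probes. These 10 were 6 of 9 fibrillar collagens, 0 of 4 basement membrane collagens, 1 of 5 FACIT collagens and 3 of 8 others. The lines did not keep one order over the family: among the 26 collagens OP9-DL had the highest reading for 5, OP9-GFP for 12 and OP9 for 9. These counts take gaps of any size. The 5 of OP9-DL include Col15a1 by the mean of its 2 probes, which disagreed. The 0 of 4 basement membrane collagens rests on the same mean, while the brighter Col15a1 probe alone passed 2-fold.

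**Figure D1:**
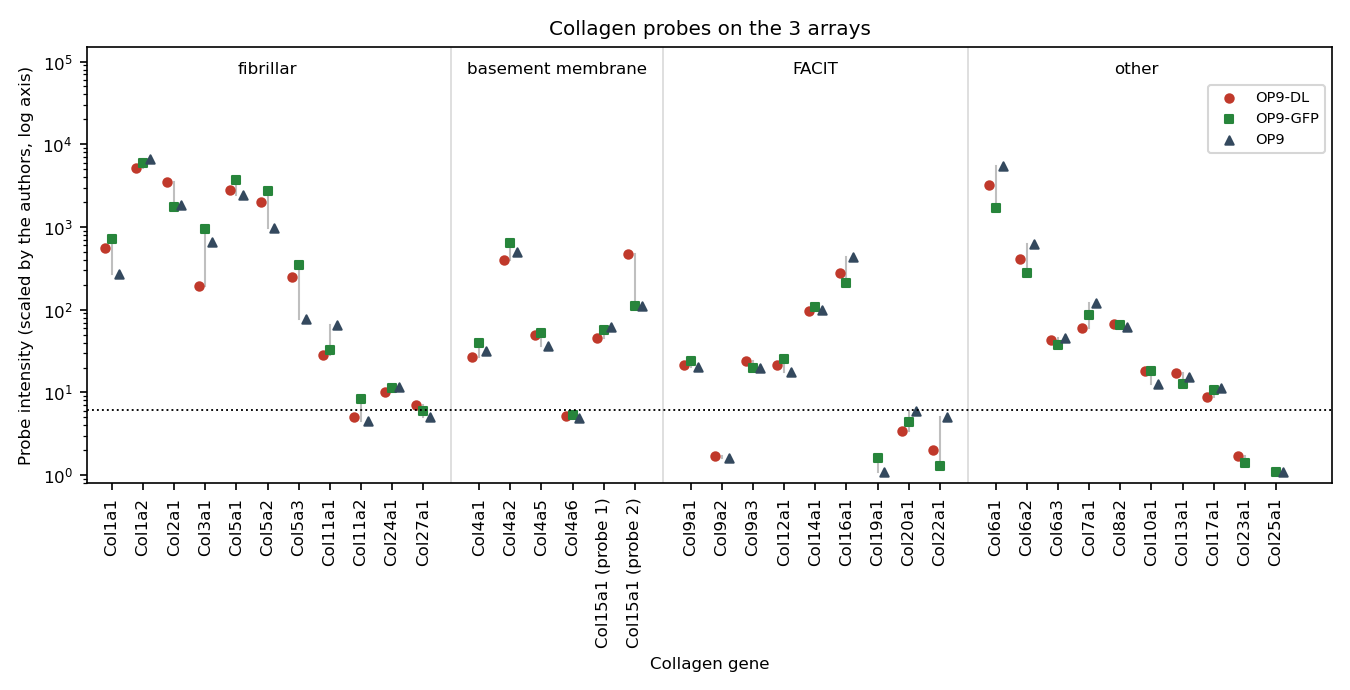
Intensity of each collagen probe (log axis) on the OP9-DL (circles), OP9-GFP (squares) and OP9 (triangles) arrays, grouped by collagen class, where a grey line spans the readings of a probe and the dotted line marks an intensity of 6.13. Col3a1 is low on the OP9-DL array alone, Col1a1, Col5a2 and Col5a3 are low on the OP9 array alone, and Col6a1 and Col6a2 run from OP9 at the top to OP9-GFP at the bottom.

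The OP9-DL and OP9-GFP lines differ by Delta-like 1 according to the labels, and this pair showed the fewest collagen differences. In OP9-DL 1 of the 26 collagens was 2-fold or more higher than in OP9-GFP and 1 was lower, 7.69% in all. Of all compared probes 2.31% were higher and 2.73% lower, 5.04% in all. The gene that was lower was Col3a1, and the gene that was higher was Col2a1. The median log2 difference of OP9-DL minus OP9-GFP was -0.18 over the collagens and -0.01 over all compared probes. By group the median was -0.36 for fibrillar, -0.34 for basement membrane, -0.16 for FACIT and 0.14 for other collagens. Of the 9 fibrillar collagens, 8 lay below 0, as did 7998 of all 15581 compared probes. Of these 8 collagens, Col11a1 (-0.21), Col1a2 (-0.20) and Col24a1 (-0.19) lay between the quartiles of all compared probes, -0.27 and 0.24. The 8 stayed below 0 under quantile, median and lowess scaling, which reuse the same arrays and are no replicate check.

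Col3a1 encodes the chain of type III collagen, which accompanies type I in soft and extensible tissues. It read 195.9 in OP9-DL, 936.4 in OP9-GFP and 660.5 in OP9. The OP9-DL array was therefore lowest, by 4.78-fold compared with OP9-GFP and by 3.37-fold compared with OP9, while the other two lay within 2-fold. In OP9-DL against OP9-GFP its difference was larger than that of 99.2% of the compared probes. Of all compared probes, 1.47% were 2-fold or more below both other lines on the OP9-DL array, and Col3a1 was the only collagen probe among them. The summed intensity of 4 osteoblast markers was also lowest there, with 28.1 in OP9-DL, 116.4 in OP9-GFP and 107.7 in OP9. Most of that sum was Alpl, an enzyme of bone-forming cells (15.1 in OP9-DL, 101.3 in OP9-GFP and 91.6 in OP9), while Ibsp was blank in both OP9-DL and OP9-GFP. Sp7 read 7.5 in OP9-DL, 9.7 in OP9-GFP and 8.7 in OP9, and Dmp1 read 5.5 in OP9-DL, 5.4 in OP9-GFP and 5.0 in OP9. Without Alpl the sum was 13.0 in OP9-DL, 15.1 in OP9-GFP and 16.1 in OP9, so the gap came from Alpl. Whether osteoblasts were present, or had a part in the Col3a1 reading, was not tested.

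Col2a1 encodes type II collagen, the main fibrillar collagen of cartilage. It read 3509.9 in OP9-DL, 1720.8 in OP9-GFP and 1819.3 in OP9. These readings come from a single probe, and whether it reads Col2a1 alone was not tested. OP9-DL was 2.04-fold above OP9-GFP and 1.93-fold above OP9, so this gene lies close to the threshold on both sides. The summed intensity of 4 cartilage markers was 58.2 in OP9-DL, 46.4 in OP9-GFP and 157.7 in OP9. In OP9-DL the sum was thus above OP9-GFP by less than 2-fold and below OP9, while Col2a1 was above both. Without the largest marker, Sox9 in both lines with GFP, the sum was 25.8 in OP9-DL and 24.8 in OP9-GFP. Acan, the proteoglycan aggrecan, was too dim to compare and read 2.5 in OP9-DL, 1.1 in OP9-GFP and 1.8 in OP9. Matn3, a cartilage matrix protein, read 8.2 in OP9-DL, 7.8 in OP9-GFP and 5.1 in OP9. Sox9, the transcription factor of chondrocytes, read 32.4 in OP9-DL, 21.6 in OP9-GFP and 35.5 in OP9. Comp, another cartilage matrix protein, made up most of the OP9 sum, with 15.1 in OP9-DL and 15.9 in OP9-GFP, against 115.3 in OP9. Whether chondrocytes were present, or had a part in the Col2a1 reading, was not tested.

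Type XI collagen nucleates cartilage fibrils, and its Col11a1 chain was lower in both lines with GFP. Col11a1 read 28.4 in OP9-DL and 32.9 in OP9-GFP, against 65.6 in OP9. That was 2.31-fold lower in OP9-DL than in OP9 and 1.99-fold lower in OP9-GFP than in OP9, just short of the threshold. Its partner Col11a2 was below the brightness limit, with 5.0 in OP9-DL, 8.3 in OP9-GFP and 4.5 in OP9. Of these cartilage collagens, Col2a1 thus read above OP9 and Col11a1 below OP9 in OP9-DL.

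The comparisons with the parental line gave more differences. In OP9-DL 3 of 26 collagens were higher than in OP9 and 3 lower, 23.1% in all, against 4.33% of all compared probes higher and 6.92% lower, 11.2% in all. In OP9-GFP 3 were higher than in OP9 and 3 lower, again 23.1%, against 4.86% of all compared probes higher and 6.75% lower, 11.6% in all. The higher collagens were Col1a1, Col5a2 and Col5a3 in each case. The lower ones were Col3a1, Col11a1 and Col7a1 on the OP9-DL array and Col6a1, Col6a2 and Col16a1 on the OP9-GFP array. Both comparisons use the same OP9 array, so a single OP9 reading enters each shared difference. The median log2 difference from OP9 over the collagens came to 0.01 in OP9-DL and 0.04 in OP9-GFP, beside 0.02 and 0.02 over all compared probes. In OP9-DL against OP9 the group medians were 0.21 for fibrillar, 0.09 for basement membrane, 0.08 for FACIT and -0.23 for other collagens. In OP9-GFP against OP9 they were 0.50 for fibrillar, 0.34 for basement membrane, 0.10 for FACIT and -0.30 for other collagens. In that comparison 6 of the 8 other collagens, type VI among them, lay below 0, while the fibrillar ones were split, with 5 of 9 above 0 and 4 below. Of all 15581 compared probes 8055 lay above 0 and 7439 below, with quartiles of -0.34 and 0.35. Between these quartiles lay Col6a3 (-0.32), Col13a1 (-0.28) and Col17a1 (-0.07) of the 6, and the fibrillar Col1a2, Col2a1 and Col24a1.

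**Figure D2:**
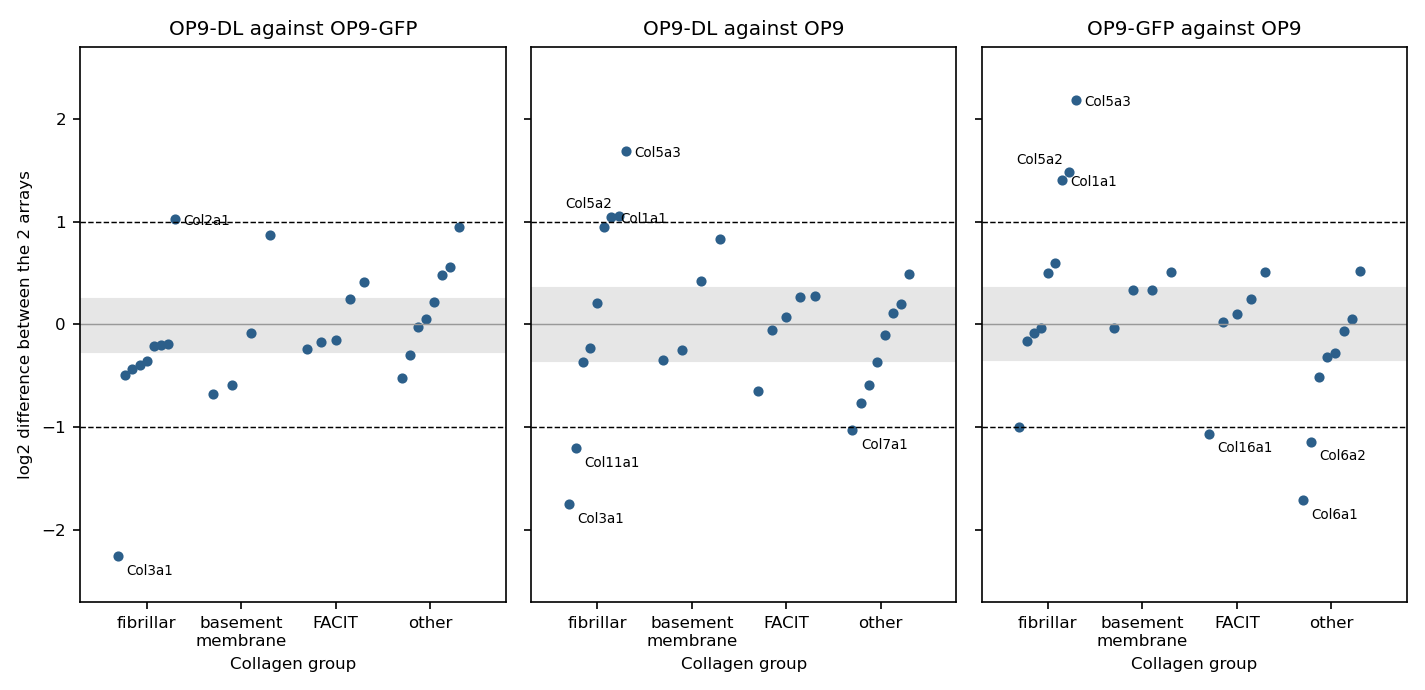
log2 difference between 2 arrays for the 26 compared collagens, by collagen group, in OP9-DL against OP9-GFP (left), OP9-DL against OP9 (middle) and OP9-GFP against OP9 (right). Dashed lines mark 2-fold, the grey band spans the range between the lower and upper quartile of all 15581 compared probes, and genes past 2-fold are named: Col3a1 reaches -2.26 on the left and Col5a3 reaches 2.18 on the right.

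Type V collagen sits inside type I fibrils and limits their width, and its chains differed in size but not in direction. Col5a3 read 249.2 in OP9-DL and 351.4 in OP9-GFP, against 77.4 in OP9. OP9-DL was 3.22-fold and OP9-GFP 4.54-fold above OP9. Col5a2 read 2006.9 in OP9-DL and 2705.8 in OP9-GFP, against 968.9 in OP9, which is 2.07-fold and 2.79-fold higher than OP9. Under lowess scaling its log2 difference of OP9-DL from OP9 fell just short of 2-fold, at 0.99. Col5a1, the chain found in nearly all type V molecules, read 2779.6 in OP9-DL, 3655.5 in OP9-GFP and 2410.3 in OP9, and stayed within 2-fold at 1.15-fold and 1.52-fold. All 3 chains were highest on the OP9-GFP array and lowest on the OP9 array. Of 4 adipocyte markers, all bright enough to compare, Adipoq and Cfd had this order too, as did Col1a1, while Fabp4 and Plin1 did not. Fabp4, a fatty acid carrier, ran in the reverse order, with 8539.4 in OP9-DL, 8033.0 in OP9-GFP and 9435.7 in OP9. Adipoq, a hormone of fat cells, read 146.7 in OP9-DL, 495.9 in OP9-GFP and 29.0 in OP9. Cfd, the protease adipsin, read 43.1 in OP9-DL, 399.5 in OP9-GFP and 17.0 in OP9. Plin1, a lipid droplet protein, read 15.2 in OP9-DL, 27.2 in OP9-GFP and 23.7 in OP9. The sum of the list was 8744.4 in OP9-DL, 8955.6 in OP9-GFP and 9505.4 in OP9, most of it the fatty acid carrier Fabp4, and without Fabp4 it was 205.0 in OP9-DL, 922.6 in OP9-GFP and 69.7 in OP9. The part of fat cell transcripts in the type I and type V readings was not tested.

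Type I collagen, the main protein of bone, is built from chains of Col1a1 and Col1a2, and the readings of these genes did not differ alike. Each gene has a single probe, and it was not tested whether the probe reads that gene alone. Col1a1 read 557.0 in OP9-DL and 712.9 in OP9-GFP, against 269.3 in OP9. It was 2.07-fold higher in OP9-DL and 2.65-fold higher in OP9-GFP than in OP9. Col1a2 read 5145.3 in OP9-DL, 5922.4 in OP9-GFP and 6612.6 in OP9. Its log2 differences from OP9 were -0.36 for OP9-DL and -0.16 for OP9-GFP. The probes of the pair thus disagreed in direction against OP9, while between OP9-DL and OP9-GFP they differed by -0.36 (Col1a1) and -0.20 (Col1a2). Of all compared probes, 2.2% were 2-fold or more lower on the OP9 array than on both others. Col1a1, Col5a2, Col5a3 and the ceramide transfer gene Col4a3bp (18.7 in OP9-DL and 21.2 in OP9-GFP, against 9.0 in OP9) were the family's probes among them. No probe of the family was 2-fold or more above both other lines in OP9-GFP or OP9, or below both in OP9-GFP, while 0.789%, 3.98% and 0.879% of all compared probes were.

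The last fibrillar genes lay low or level. Col24a1 read 10.0 in OP9-DL, 11.4 in OP9-GFP and 11.7 in OP9. Col27a1, below the brightness limit, read 7.1 in OP9-DL, 6.0 in OP9-GFP and 5.1 in OP9. Col3a1 and Col5a2 are direct neighbours among the protein-coding genes of chromosome 1, and they differed in direction in 1 of the 3 comparisons. In OP9-DL against OP9 the log2 difference was -1.75 for Col3a1 and 1.05 for Col5a2. In OP9-DL against OP9-GFP both were lower, at -2.26 for Col3a1 and -0.43 for Col5a2. In OP9-GFP against OP9 both were higher, at 0.50 for Col3a1 and 1.48 for Col5a2.

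Type VI collagen forms beaded filaments around cells from the products of Col6a1, Col6a2 and Col6a3. Col6a1 read 3242.8 in OP9-DL and 1684.2 in OP9-GFP, against 5506.3 in OP9. Col6a2 read 412.8 in OP9-DL and 281.1 in OP9-GFP, against 620.7 in OP9. The OP9-GFP array was lowest for both genes, 3.27-fold below OP9 for Col6a1 and 2.21-fold below OP9 for Col6a2. OP9-DL lay between and within 2-fold of each neighbour, with log2 differences of -0.76 and -0.59 from OP9 and of 0.95 and 0.55 from OP9-GFP. Col6a3, the largest of these chains, kept the same order of lines in a narrower range, with 42.9 in OP9-DL, 37.0 in OP9-GFP and 46.1 in OP9. Col6a1 and Col6a2 are direct neighbours among the protein-coding genes of chromosome 10, and Col6a3 lies on chromosome 1. In the windows printed above, both Col6a2 windows held a GC box and the Col6a1 window did not.

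**Figure D3:**
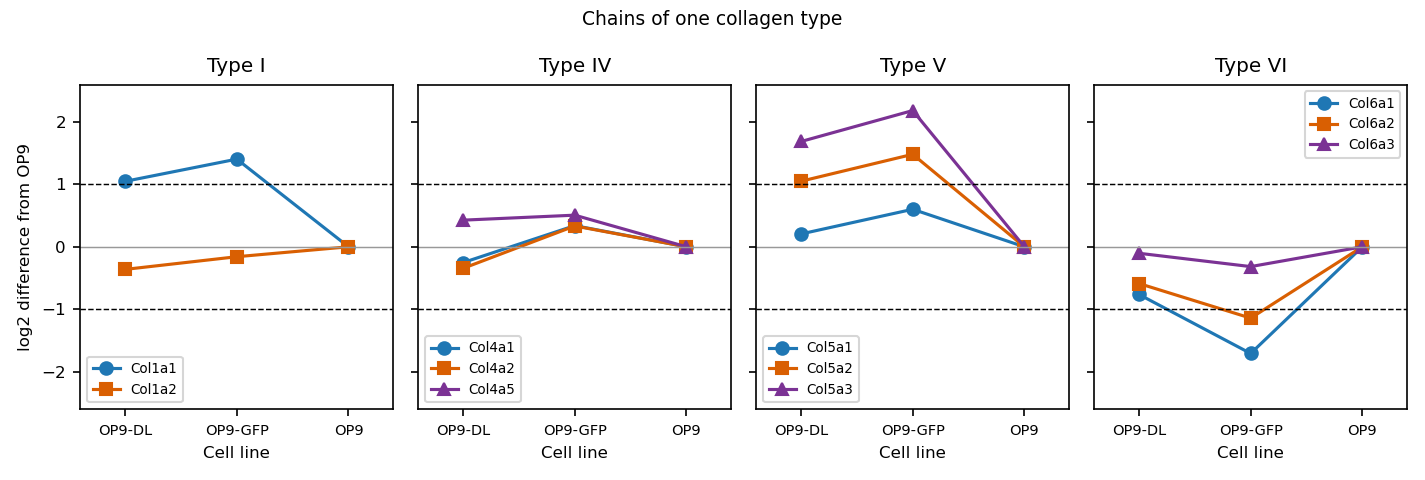
log2 difference of each chain from its own reading on the OP9 array, for the chains of collagen types I, IV, V and VI, in OP9-DL, OP9-GFP and OP9 (set to 0). Lines join the readings of one gene and dashed lines mark 2-fold: the chains of types V and VI each keep one order of lines, Col4a1 and Col4a2 nearly coincide, and Col1a1 and Col1a2 part.

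The basement membrane collagens stayed within 2-fold in each comparison when the probes of a gene were averaged. Col4a1 and Col4a2 make up the common type IV network and are neighbours on chromosome 8 that are read in opposite directions from one region, and their promoter windows of 300 bases in the RefSeq table share 78 bases. Col4a1 read 26.6 in OP9-DL, 40.1 in OP9-GFP and 31.7 in OP9. Col4a2 read 394.7 in OP9-DL, 631.7 in OP9-GFP and 501.4 in OP9. The log2 differences of the pair were close in each comparison: -0.59 and -0.68 for OP9-DL against OP9-GFP, -0.25 and -0.35 for OP9-DL against OP9, and 0.34 and 0.33 for OP9-GFP against OP9. Both were lowest on the OP9-DL array, as Col3a1 was, but by less than 2-fold.

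The X-linked Col4a5, a chain of the kidney and skin networks, read 49.2 in OP9-DL, 52.0 in OP9-GFP and 36.6 in OP9. Its neighbour Col4a6 was dim, with 5.2 in OP9-DL, 5.3 in OP9-GFP and 4.9 in OP9. Col15a1, a multiplexin that links basement membranes to the matrix below, was read by 2 probes that disagreed. The brighter one had 477.6 in OP9-DL, 112.0 in OP9-GFP and 109.4 in OP9, 4.26-fold and 4.37-fold higher in OP9-DL than in OP9-GFP and OP9. Of all compared probes 0.969% were 2-fold or more above both other lines in OP9-DL, and this was the only one of the family. The dimmer one had 45.0 in OP9-DL, 57.3 in OP9-GFP and 61.7 in OP9, lowest on the OP9-DL array. Their mean log2 difference of 0.87 for OP9-DL against OP9-GFP therefore hides a 4.26-fold difference on one probe and one of -0.35 in log2 on the other, and no direction is given for this gene.

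Among the FACIT collagens only Col16a1 passed 2-fold. Col16a1, which occurs in several connective tissues, read 278.5 in OP9-DL and 208.8 in OP9-GFP, against 436.7 in OP9. It was 2.09-fold lower in OP9-GFP and 1.57-fold lower in OP9-DL than in OP9, the order of lines seen for Col6a1 and Col6a2. Col12a1 and Col14a1, which bind the surface of type I fibrils, stayed within 2-fold. Col12a1 read 21.5 in OP9-DL, 25.4 in OP9-GFP and 17.9 in OP9. Col14a1 read 96.6 in OP9-DL, 107.6 in OP9-GFP and 100.4 in OP9. The type IX chains of cartilage were level as well. Col9a1 read 21.6 in OP9-DL, 24.3 in OP9-GFP and 20.5 in OP9. Col9a3 read 23.8 in OP9-DL, 20.0 in OP9-GFP and 19.7 in OP9. The dim partner Col9a2 had 1.7 in OP9-DL, a blank in OP9-GFP and 1.6 in OP9.

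The dim FACIT genes give no firm differences. Col20a1 read 3.4 in OP9-DL, 4.4 in OP9-GFP and 6.0 in OP9. Col22a1, a collagen of tissue junctions, read 2.0 in OP9-DL, 1.3 in OP9-GFP and 5.1 in OP9. Col22a1 would be counted as lower in both lines with GFP without the brightness limit. Col19a1 was blank in OP9-DL and had 1.6 in OP9-GFP and 1.1 in OP9.

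Col7a1, which forms the anchoring fibrils beneath epithelia, was lower on the OP9-DL array. It read 59.5 in OP9-DL, 85.4 in OP9-GFP and 121.7 in OP9, 2.05-fold lower in OP9-DL than in OP9. It lies close to the threshold: the log2 difference of -1.03 became -0.92 under quantile scaling and -0.97 both under lowess scaling and with a constant of 5, each short of 2-fold. Col8a2, a short-chain collagen of the cornea, read 67.5 in OP9-DL, 64.9 in OP9-GFP and 62.5 in OP9, a flat profile. Col10a1, a product of hypertrophic chondrocytes, read 18.0 in OP9-DL, 18.3 in OP9-GFP and 12.8 in OP9. The transmembrane collagens were below the array median. Col13a1 read 17.4 in OP9-DL, 12.5 in OP9-GFP and 15.2 in OP9. Col17a1, of the hemidesmosome, read 8.7 in OP9-DL, 10.7 in OP9-GFP and 11.2 in OP9. Col23a1 had 1.7 in OP9-DL and 1.4 in OP9-GFP, and Col25a1 had 1.1 in both OP9-GFP and OP9, each with a blank in the remaining line.

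Collagen chains are hydroxylated and glycosylated in the endoplasmic reticulum, folded with chaperones, trimmed outside the cell, cross-linked and bound by receptors. Of 58 genes listed for these steps 55 had a probe and 46 were compared. In OP9-DL against OP9-GFP 1 of 46 was higher and 0 lower (2.17%, against 5.04% of all compared probes). In OP9-DL against OP9, 2 were higher and 6 lower (17.4%, against 11.2%), and in OP9-GFP against OP9, 4 were higher and 5 lower (19.6%, against 11.6%). The medians of these log2 differences were -0.11, -0.09 and -0.10, beside -0.01, 0.02 and 0.02 over all compared probes.

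The modifying enzymes that passed 2-fold were P4ha2, P3h3 and Plod2. P3h3, of a complex that modifies prolines and lysines of collagen, read 344.7 in OP9-DL and 380.0 in OP9-GFP, against 1060.1 in OP9, 3.08-fold and 2.79-fold lower. Plod2, the lysyl hydroxylase of the chain ends, read 39.3 in OP9-DL and 57.1 in OP9-GFP, against 140.0 in OP9, 3.56-fold and 2.45-fold lower. P4ha2, a prolyl hydroxylase subunit, read 118.5 in OP9-DL, 219.3 in OP9-GFP and 99.2 in OP9, with OP9-GFP 2.21-fold above OP9. Among 9 chaperone and export genes only the folding enzyme Fkbp14 passed, with 155.2 in OP9-DL, 108.4 in OP9-GFP and 240.9 in OP9 and OP9-GFP 2.22-fold below OP9.

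Genes of propeptide cleavage and fibril assembly differed from OP9 in both directions. Bmp1, a protease that removes the C-terminal propeptide, read 14.6 in OP9-DL, 27.1 in OP9-GFP and 36.2 in OP9. Its relative Tll1 read 36.4 in OP9-DL, 27.6 in OP9-GFP and 7.5 in OP9. Bmp1 was thus 2.48-fold lower and Tll1 4.85-fold higher in OP9-DL than in OP9, while in OP9-GFP Tll1 was 3.68-fold higher. Pcolce, which enhances this cleavage, read 1463.1 in OP9-DL, 2432.4 in OP9-GFP and 3781.0 in OP9, and was 2.58-fold lower in OP9-DL than in OP9. Thbs2, a matrix protein needed for orderly fibrils, read 402.0 in OP9-DL and 414.0 in OP9-GFP, against 2718.0 in OP9, 6.76-fold and 6.57-fold lower.

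Cross-linking enzymes of the lysyl oxidase family held the only gene of this list that passed 2-fold in OP9-DL against OP9-GFP. Loxl4 was read by 2 probes of the same order, with 52.7 and 257.9 in OP9-DL, 26.9 and 115.9 in OP9-GFP and 10.8 and 58.3 in OP9. The mean over both was 2.09-fold higher in OP9-DL than in OP9-GFP, 4.65-fold higher in OP9-DL than in OP9 and 2.23-fold higher in OP9-GFP than in OP9. Adding 5 to each intensity lowered the gap between OP9-DL and OP9-GFP to 0.99 in log2 and that between OP9-GFP and OP9 to 0.97, both short of 2-fold. On the brighter probe alone the gap between OP9-GFP and OP9 was 0.99, also short of 2-fold. Lox, the founding member, read 1113.8 in OP9-DL and 1175.6 in OP9-GFP, against 569.8 in OP9, and passed 2-fold for OP9-GFP (2.06-fold) but not for OP9-DL (1.95-fold), and under lowess scaling not for OP9-GFP either (0.99 in log2). Loxl3 read 1929.9 in OP9-DL, 1281.1 in OP9-GFP and 2943.3 in OP9, with OP9-GFP 2.3-fold below OP9. Of 6 compared receptors and uptake genes, Mrc2, an endocytic collagen receptor, passed 2-fold, with 11.7 in OP9-DL, 17.4 in OP9-GFP and 25.6 in OP9, 2.19-fold lower in OP9-DL than in OP9. Its log2 difference was -0.87, below 2-fold, with a constant of 5.

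**Figure D4:**
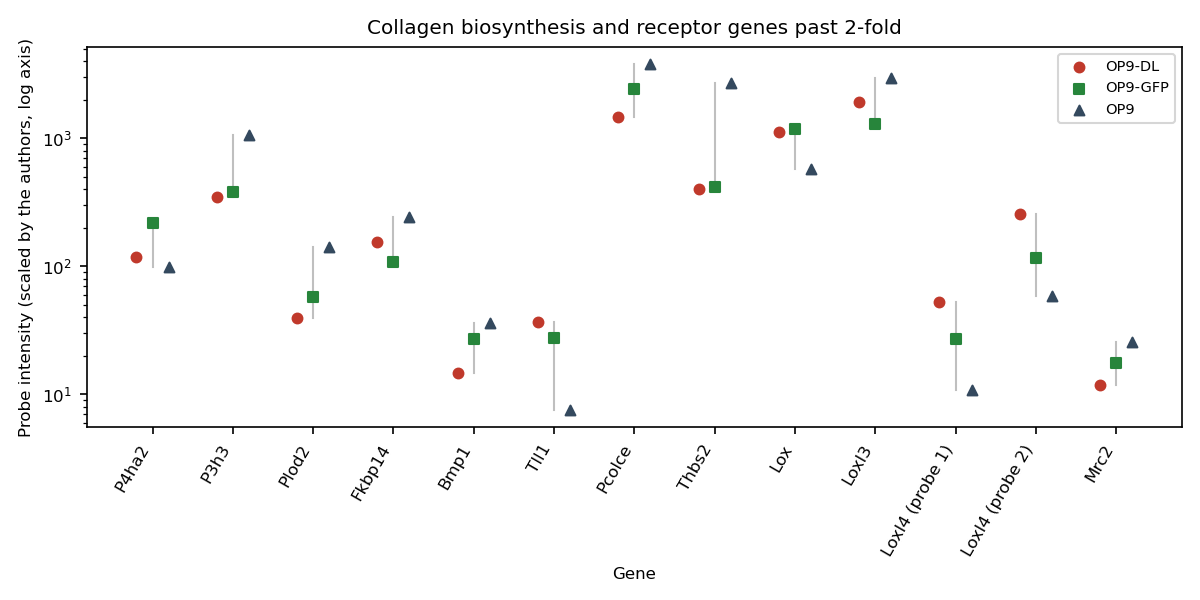
Intensity (log axis) on the OP9-DL (circles), OP9-GFP (squares) and OP9 (triangles) arrays of the 12 collagen biosynthesis and receptor genes that passed 2-fold between 2 lines, with both probes of Loxl4. Thbs2, P3h3, Plod2, Fkbp14, Bmp1, Pcolce, Loxl3 and Mrc2 are highest on the OP9 array. P4ha2, Tll1, Lox and Loxl4 are lowest there.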

How the data were processed

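Per the labels' protocols, column-purified total RNA was turned into amino allyl aRNA, then labelled with Cy5 and fragmented as the array maker (Toray) prescribes. The deposited values are linear probe intensity, which the authors scaled to a median of 20 per array, as seen from the values. Scanning, background correction and the origin of blank cells were not given in the sources used here. Intensities were used without further scaling, and log2 was taken with no constant added. Of 23473 probes, 20775 had a value on all 3 arrays and 15581 passed the brightness limit. The number of arrays limits the precision, and no p-value was computed. Probes were named from the platform annotation (16631 with 1 symbol, 0 with several, 6842 with none), and symbols outside the collagen rule were updated through the gene table of GRCm38.p6. No probe coordinates are given. Probes of one gene were averaged on the log2 scale. Of the collagens, Col4a3, Col4a4, Col6a5, Col8a1, Col18a1, Col21a1 and Col28a1 are not analysed here. Emid2 (now Col26a1), 1110001D15Rik (Col6a4) and E330026B02Rik (Col6a6) carry other symbols on the array and entered an alternative only.

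Every collagen is named, and of the biosynthesis and receptor list every gene past 2-fold. Alternatives were quantile, median and lowess (span 0.3) scaling, the 50th percentile or none as brightness limit, 5 added before log2, blanks filled with the lowest intensity of their array, 1.5-fold and 3-fold as threshold, the brightest probe of each gene, type IV alone as basement membrane, and updated symbols. Counting Col4a3bp was an alternative chosen after seeing the data. The members, groups and lists were chosen with earlier results of these data known. The counting was tested on simulated arrays. The software was Python 3.11.15 with numpy 2.4.6, pandas 2.3.3, statsmodels 0.14.6 and matplotlib 3.10.9.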

Additional observations from a re-analysis of the deposited data

How the results depend on the processing

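No paired analysis was possible because each line has 1 array. For the same reason no array could be left out. Of 26 collagens 6, 11 and 8 passed at 1.5-fold in OP9-DL against OP9-GFP, OP9-DL against OP9 and OP9-GFP against OP9. At 3-fold 1, 2 and 2 passed in the same order. Of 46 compared biosynthesis and receptor genes 10, 18 and 17 passed at 1.5-fold and 0, 5 and 2 at 3-fold in these comparisons. Over all 15581 compared probes the counts at 1.5-fold were 2531, 4514 and 4586 and at 3-fold 275, 657 and 557. In OP9-DL against OP9-GFP the biosynthesis and receptor list gave 4 of 52 compared genes without a brightness limit and 0 of 45 with a constant of 5. With that constant 534 of 15581 probes passed in this comparison. In OP9-DL against OP9-GFP 1364 of 20775 probes passed without a brightness limit and 457 of 10388 with the limit at the 50th percentile. With the limit used here 785 of 15581 passed, so the number of probes compared changed along with the count. The share that passed changed too, and was largest without a limit and smallest at the 50th percentile. That a count changes with the threshold, the constant or the number compared follows from how each alternative is built. The collagen median of OP9-DL against OP9, 0.01, became -0.10 with the limit at the 50th percentile, where 19 collagens were left. Every other collagen count stayed within 1.5 times the reported one, also with Col4a3bp counted. No single called gene changed sign, but most alternatives could not change one. The thresholds, brightness limits and filled blanks left the value of each called gene still compared as it was. Adding 5 cannot reverse the order of 2 intensities, and the scalings moved the called genes little. With the brightest probe of each gene, Col15a1 joined the higher collagens, giving 3 of 26 in OP9-DL against OP9-GFP and 7 in OP9-DL against OP9. Of all compared probes 5.04% and 11.2% passed in these comparisons. Under lowess scaling 4 of 26 collagens passed in OP9-DL against OP9, without Col5a2 (0.99) and Col7a1 (-0.97), beside 1732 of 15581 probes. With a constant of 5, Col7a1 (-0.97 in OP9-DL against OP9), Loxl4 (0.99 in OP9-DL against OP9-GFP and 0.97 in OP9-GFP against OP9) and Mrc2 (-0.87 in OP9-DL against OP9) no longer passed. Nor did Loxl4 on its brightest probe in OP9-GFP against OP9 (0.99), or Col7a1 under quantile scaling (-0.92). Near or below 6.13 a few units of intensity make a large fold, so low signal limits the 9 dim or partly blank collagens.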

Other observations

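3 probes outside the symbol rule belong to collagen genes under their present names. Col26a1 read 14.9 in OP9-DL, 14.8 in OP9-GFP and 18.5 in OP9. Col6a6, a chain of type VI related to Col6a3, read 1.8 in OP9-DL, 1.1 in OP9-GFP and 1.0 in OP9, and Col6a4 read 2.3 on the OP9-DL array and 1.7 on the OP9 array and was blank on the OP9-GFP array.

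Chosen after their values were seen, 3 genes of the biosynthesis and receptor list are given here that were too dim to compare and spread by more than 2-fold. Pcolce2, a relative of Pcolce, read 2.2 in OP9-DL, 6.4 in OP9-GFP and 1.2 in OP9. Loxl2 read 1.1 in OP9-DL, 7.5 in OP9-GFP and 2.1 in OP9, and Lair1, an inhibitory collagen receptor of blood cells, read 3.0 in OP9-DL, 1.1 in OP9-GFP and 3.2 in OP9.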
